A study of Mus musculus with 10 samples.

Results

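Protein kinases and phosphatases of signalling were followed in M-1 cells, a mouse line from the cortical collecting duct of the kidney. Members were all clones of the array whose annotation gave 1 gene symbol and whose symbol belonged to 1 of the chosen families. The kinase families were MAP kinases and the kinases above them, casein kinases, protein kinases A, C, D and G, Akt, phosphoinositide 3-kinases, Gsk3, Camk, Stk, Wnk, Oxsr1, Jak and Rock. The phosphatase families were Ppp, Dusp, Ptpn, Ptpr and Ptp4a. The rule found 206 clones of 136 genes, among 9866 clones of 7142 genes with 1 symbol and 15600 clones in all. Of these, 111 clones of 72 genes carried kinase symbols and 95 clones of 64 genes carried phosphatase symbols. The symbol rule also takes in proteins that are no catalytic chain, such as regulatory subunits, and Prkcsh, a chain of glucosidase II that is no kinase.

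Cells at confluence were kept in medium without steroid hormones and then given 100 nM dexamethasone, a synthetic glucocorticoid, or medium without steroid for 3 h. Total RNA was read on spotted cDNA arrays in both colours, 2 neighbouring spots per clone. RNA of treated cells was in 3 Cy5 channels, each on an array whose Cy3 channel held control RNA (the treated pairs). A further 2 pairs, the control pairs, hold RNA titled control in each dye. For 5 of 7 channels with control in the title the treatment entry says dexamethasone. This contradiction was not resolved, and directions follow the titles. No dye swap was made, so dye and treatment cannot be told apart within a treated pair, and control pairs were read on separate arrays. The labels do not say whether channels came from separate cultures, so p-values measure only the spread among these channels, possibly a technical one. All RNA came from 1 line in bulk, where fewer cells with a transcript and less of it per cell cannot be told apart.

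The control pairs list 99.4% and 99.2% of the spots, and the treated pairs list 12.1%, 12.8% and 12.8%, those with outlying Cy5/Cy3 ratios. After centring, the smallest listed ratio on the treated arrays was 0.29, 0.48 and 0.27 in size (log2). A clone is therefore called listed higher or listed lower on a treated array by the sign of its listed spots, and a clone that is not listed has no measured fold there. A listed ratio is large by selection while a control ratio is not, so the difference between them is enlarged and the spread among listed ratios is narrowed. Channel medians of intensity were between 327 and 1076 for control pairs and between 355 and 880.5 for treated pairs. Of 17 collecting duct markers, 6 had a clone and Aqp2 and the Scnn1 subunits had none, so the cell type could not be checked against its defining markers. The 6 had 4 spots listed higher and 1 lower. Of the markers for other cells, 3 of 7 proximal tubule, 8 of 9 fibroblast, 1 of 7 leukocyte and 3 of 5 endothelial genes had a clone. Their listed spots were 3 higher and 1 lower for proximal tubule, 3 and 3 for fibroblast, 0 and 1 for leukocyte, and 0 and 0 for endothelial genes, and their part in the results was not tested.

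Kinases add phosphate to serine, threonine or tyrosine and phosphatases remove it, so the balance of both sets the activity of a signalling protein. In the kidney, kinases of the Wnk and Oxsr1 group act on sodium and chloride cotransporters, and Sgk1 and Akt act downstream of phosphoinositide 3-kinase. Glucocorticoids enter these pathways partly by changing the transcription of a kinase or of a phosphatase, with Sgk1 and Dusp1 as textbook targets. Dusp1 and Mapk3 had no clone with a single symbol here and were not analysed.

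The glucocorticoid receptor binds a palindrome of 2 hexamers, AGAACA and, after 3 bases of any kind, TGTTCT. The 250 bases before the start of 112 of the 136 genes were read from the RefSeq table (GRCm38.p6, first listed start of each gene) and searched for AGAACA on both strands, which is TGTTCT on the other, and for the whole palindrome. At least 1 hexamer was found in 9 of the 112, which is 8.04%, and in 16.2% of all 27025 genes. The whole palindrome was found in 0 of the 112 and in 1 of the 27025. The windows shown are 3, with any hexamer in capitals. They are those of Csnk2a2, whose clone is the only one among the members listed one way on all treated arrays; Csnk1e, the only 1 of 12 windows of clones listed one way on at least 2 arrays that holds the hexamer; and Ppp4r2, the only member listed with both spots on 2 arrays.
Csnk2a2, chr8:95488821-95489070, minus strand: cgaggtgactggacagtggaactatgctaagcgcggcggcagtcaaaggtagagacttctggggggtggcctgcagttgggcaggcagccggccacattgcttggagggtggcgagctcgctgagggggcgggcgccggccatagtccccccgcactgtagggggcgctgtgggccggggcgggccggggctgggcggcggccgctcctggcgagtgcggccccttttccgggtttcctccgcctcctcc
Csnk1e, chr15:79442144-79442393, minus strand: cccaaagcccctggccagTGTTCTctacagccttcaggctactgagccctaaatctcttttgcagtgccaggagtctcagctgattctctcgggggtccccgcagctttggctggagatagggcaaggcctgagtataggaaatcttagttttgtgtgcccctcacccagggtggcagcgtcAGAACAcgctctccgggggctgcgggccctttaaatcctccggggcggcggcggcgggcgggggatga
Ppp4r2, chr6:100833388-100833637, plus strand: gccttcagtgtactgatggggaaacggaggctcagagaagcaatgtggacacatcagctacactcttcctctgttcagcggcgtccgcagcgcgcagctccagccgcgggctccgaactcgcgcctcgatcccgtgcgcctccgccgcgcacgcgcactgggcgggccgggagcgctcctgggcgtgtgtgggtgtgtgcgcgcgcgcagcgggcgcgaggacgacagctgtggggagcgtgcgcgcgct
The Csnk1e window holds 2 hexamers, starting at bases 19 and 183 from its 5′ end, 1 on each strand, too far apart to form the palindrome. The windows of Csnk2a2 and Ppp4r2 hold 0, which says only that these letters are absent there.

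No kinase or phosphatase clone passed the test of treated against control pairs. The limma fit covered the 2131 clones valued in both control pairs and in at least 2 treated pairs, 25 of them members (12 kinase and 13 phosphatase clones). It called 0 clones higher (0%) and 0 lower (0%) at an adjusted p under 0.05, and the smallest adjusted p was 0.187. At an unadjusted p under 0.05 there were 552 clones, which is 25.9%, a share raised by the selection of large ratios, and 5 of the 25 members. Those 5 were the kinases Akt1 and Csnk2a2 and the phosphatase Dusp16, with higher ratios, and the phosphatase members Ppp1r1b and Ptp4a3, with lower ratios. The share of members under this limit was not above that of all clones tested. The plain t statistic called 8 clones higher and 7 lower, 0 of them members.

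By listing, which has no p-value and rests on few clones, 4 of 111 kinase clones were listed higher on at least 2 of the 3 treated arrays and lower on none (3.6%), beside 4.22% of all clones. In the other direction 3 kinase clones were listed lower (2.7%), beside 4.24%. Of the 95 phosphatase clones 3 were listed higher (3.16%) and 7 lower (7.37%). Among clones with 1 symbol 4.38% were listed higher and 4.16% lower. Kinase shares were thus a little below the background in both directions, and the phosphatase share was above it on the lower side. The 7 lower phosphatase clones were 5 without the first treated array, 1 without the second and 1 without the third, beside 1.97%, 1.74% and 1.59% of all clones. Requiring both spots left 1, that of Ppp4r2, beside 0.256% of all clones. Kinase clones listed higher on both remaining arrays were 2 without the first array, 4 without the second and 1 without the third. The shares of all clones were 1.54%, 2.04% and 1.6%. Of the 4 higher kinase clones, only that of Csnk2a2 remained without the first array. The other clone counted there was that of Stk36, which was listed lower on the array left out.

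**Figure D1:**
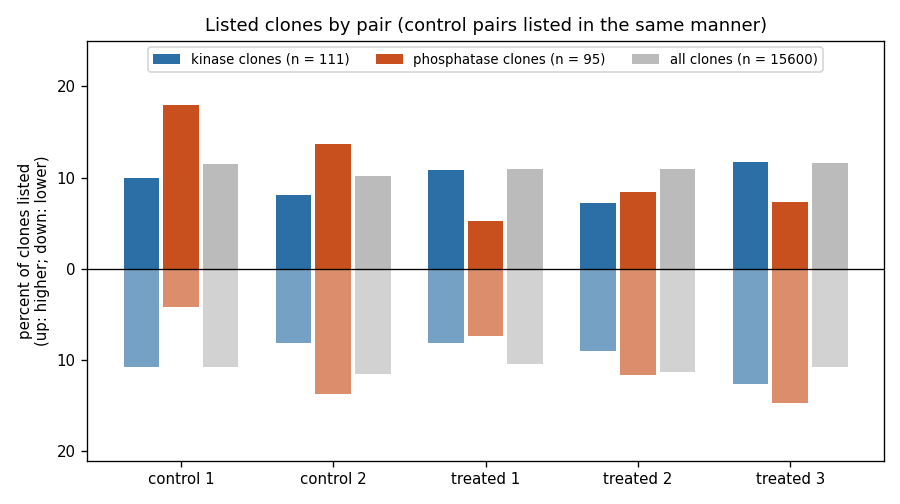
Percent of kinase clones (n = 111), phosphatase clones (n = 95) and all clones (n = 15600) listed higher (bars above 0) or lower (bars below 0) in each pair; for control pairs the spots with the largest ratios were taken as listed. On the treated arrays the phosphatase bars reach lower than higher each time, while in control pair 1 they stand at 17.9% higher and 4.21% lower.

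Set side by side by array, kinase clones were listed 12 higher and 9 lower on the first treated array, 8 and 10 on the second and 13 and 14 on the third. Phosphatase clones were listed 5 higher and 7 lower, 8 and 11, and 7 and 14. Of all clones 10.9%, 10.9% and 11.6% were listed higher and 10.4%, 11.3% and 10.8% lower on these arrays. The share of listed clones that was higher ran from 44.4% to 57.1% for kinases and from 33.3% to 42.1% for phosphatases, beside 49.1% to 51.9% for all clones. The phosphatase share lay under the kinase share on all 3 treated arrays. When the control pairs were listed in the same manner, by taking the 12.6% of their spots with the largest ratios, an alternative chosen after seeing the data, kinases had 11 higher and 12 lower in control pair 1 and 9 and 9 in control pair 2. Phosphatases had 17 higher and 4 lower in control pair 1, so that 81.0% of those listed were higher, and 13 and 13 in control pair 2. Of all clones 11.5% were higher and 10.8% lower in control pair 1, and 10.2% and 11.5% in control pair 2. The phosphatase share thus differed between the control pairs by more than the families differed on any treated array. Of the members 1 was higher and 1 lower in both control pairs, beside 1.58% and 1.76% of all clones.

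Counted by spots over the treated arrays, 34 kinase spots were higher and 37 lower, and 23 phosphatase spots were higher and 36 lower. The higher spots made up 47.9% for kinases and 39.0% for phosphatases, beside 50.6% for all clones (5954 higher and 5820 lower). For clones with 1 symbol they made up 52.0%. The share of all clones is the background for the spot counts by role given further on. The median listed ratio was 0.07 for kinases and -0.57 for phosphatases, beside 0.26 for all clones and 0.41 for clones with 1 symbol (log2). Listed spots hold nothing near 0, so this median shows mainly which side holds more values. A listed clone can lie near 0 only where its 2 spots went opposite ways. The kinase median of 0.07 is such a value, that of Prkcz clone 3330 on the second treated array. The median size was 0.63 for kinases, 0.70 for phosphatases and 0.65 for all clones, so the families differed little in how far listed ratios lay from the centre. The full ratios of the control pairs had medians of 0.01 and 0.01 for kinases and 0.07 and 0.06 for phosphatases in control pairs 1 and 2.

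Most members gave little on the treated arrays. Of the 206 clones, 114 were listed on none, 67 on 1 array, 23 on 2 and 2 on 3. At least 1 listing was found for 47.7% of the kinase and 41.1% of the phosphatase clones, beside 51.8% of all clones. Of 119 listings of a member on an array, 108 rested on 1 of the 2 spots, 10 on both spots going the same way and 1 on spots that went opposite ways. In the control pairs the 2 spots of a member differed by a median of 0.26 and 0.27 (log2) and by over 0.62 in 1 clone of 10. The latter gap exceeds the smallest listed ratios of the treated arrays (0.29, 0.48 and 0.27 in size). It is close to the median listed size of members, 0.65.

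**Figure D2:**
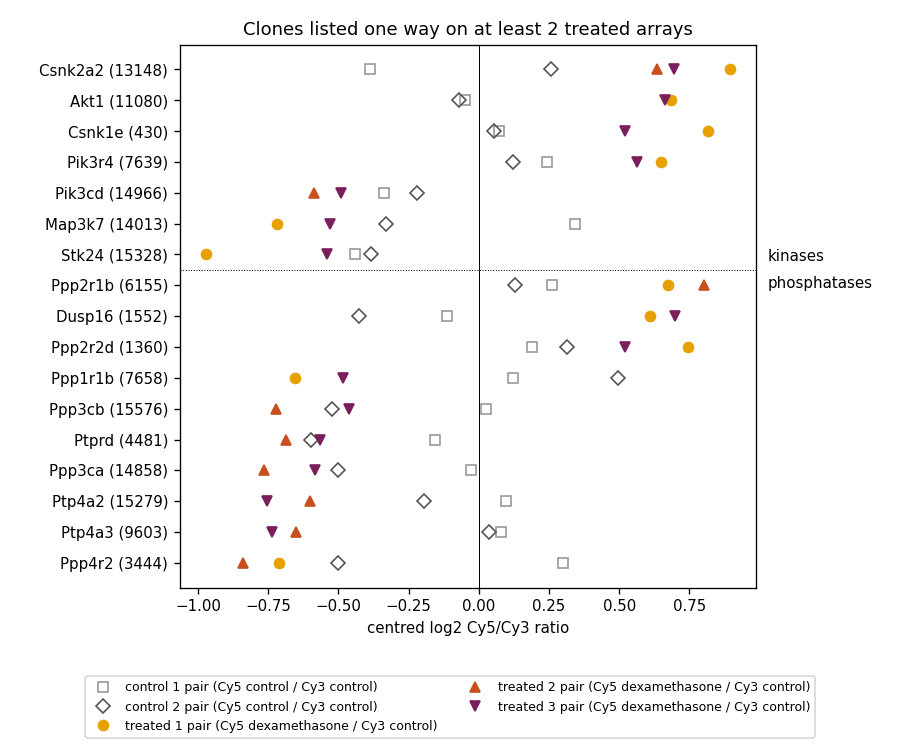
Centred log2 Cy5/Cy3 ratio (x axis) of the 17 member clones listed one way on at least 2 treated arrays, 7 kinase and 10 phosphatase clones, with the clone number beside each gene; filled marks are treated pairs and open marks control pairs. In 15 of the 17 clones all treated ratios lie beyond both control ratios, with Ppp3cb and Ptprd as the exceptions. Treated ratios are listed because they are large and control ratios are not, which favours such a gap. The same share over all clones was not counted.

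Csnk2a2 encodes the second catalytic chain of casein kinase 2, a kinase that is active without a second messenger. It has 4 clones on the array, and they did not give the same picture. Clone 13148 had centred ratios of 0.89, 0.63 and 0.70 in the treated pairs and of -0.39 and 0.26 in the control pairs (log2). All treated ratios lay above both control ratios, a gap that the selection of large treated ratios favours. The treated mean was 0.74 ± 0.14 (SD, n = 3), and limma gave a difference of 0.81 (standard error 0.26, adjusted p 0.187), so it did not pass. It was the only member listed higher on all 3 treated arrays, beside 0.34% of all clones, and none was listed lower on all 3, beside 0.359%. Without control pair 1 the difference was 0.48, without control pair 2 it was 1.13, and median centring gave 0.51.

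In clone 13148 each treated ratio rested on 1 spot, the first on treated arrays 1 and 3 and the second on array 2. Its Cy3 channel read 228, 497 and 544 on the treated arrays, and its Cy5 channel, with RNA of treated cells, read 383, 666 and 963. In control pair 1 the means of both spots were 651.5 in Cy3 and 388 in Cy5, and in control pair 2 they were 620.5 and 1033.5. The Cy5 readings of treated cells thus lay within the range of the control Cy5 readings apart from one slightly below it, before any scaling of the channels. After scaling of channels, Cy5 was 0.28 above and Cy3 0.49 below the control arrays (log2), and with Cy5 alone the adjusted p by limma was 0.772.

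Clone 2464 of Csnk2a2 was listed once, lower, at -0.63 on the second treated array, where it read 558 in Cy3 and 250 in Cy5. Its control ratios were -0.61 and 0.14, so the listed value was almost that of control pair 1. Clones 7675 and 13071 were not listed on any treated array. Clone 7675 had control ratios of -0.45 and -0.12 and read 709 and 978.5 in Cy3 and 436 and 1062.5 in Cy5. Clone 13071 had control ratios of -0.23 and 0.15, and read 654 and 732 in Cy3 and 434 and 1055.5 in Cy5. All 4 clones had a lower ratio in control pair 1 than in control pair 2. The 2 spots of clone 13071 stood at -0.69 and 0.22 in control pair 1, a gap wider than the treated ratio of clone 13148.

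**Figure D3:**
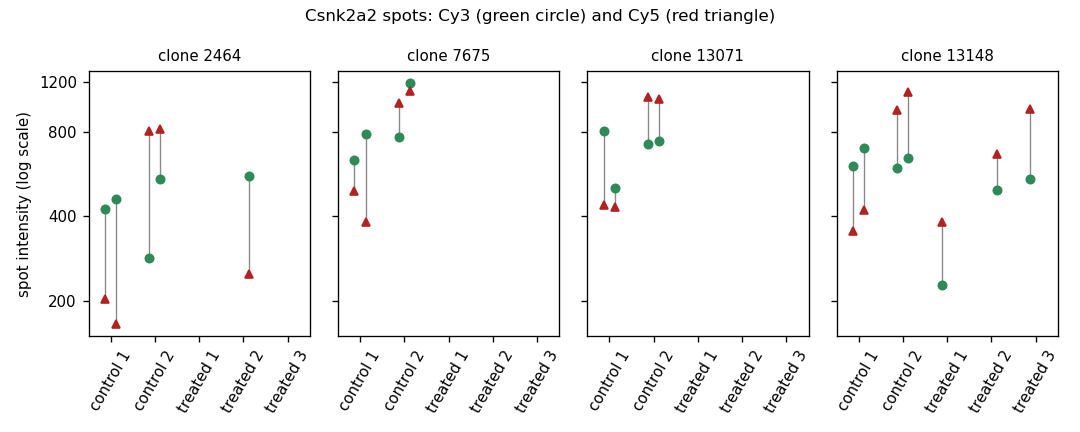
Intensity of each spot of the 4 Csnk2a2 clones (log axis) in the Cy3 channel (green circles) and the Cy5 channel (red triangles), joined by a line for each spot, in the 5 pairs. Cy5 stands above Cy3 on the treated arrays in clone 13148 and below it in clone 2464, and clones 7675 and 13071 have no treated value.

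Among the other casein kinases, Csnk1e, an isoform of casein kinase 1 known from the circadian clock, was listed higher at both of its clones. Clone 430 had ratios of 0.82 and 0.52 on treated arrays 1 and 3 and of 0.07 and 0.06 in the control pairs. The difference by limma was 0.60 (standard error 0.22, adjusted p 0.195.) It read 134 in Cy3 and 207 in Cy5 on the first treated array, far below the 729.5 and 1216.5 in Cy3 on the control arrays, and 1012 and 1492 on the third. With Cy5 alone its difference turned to -0.72, and median centring gave 0.03. Clone 3985 was listed once at 0.47, with control ratios of -0.15 and 0.37. Of the 5 clones of Csnk1a1, the ubiquitous isoform, 2 were listed lower, at -0.67 and -0.90, and 3 were not listed. Csnk2a1, the other catalytic chain of casein kinase 2, was not listed.

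Akt1, a kinase activated by phosphoinositide 3-kinase, had ratios of 0.69 and 0.66 on treated arrays 1 and 3 and of -0.05 and -0.07 in the control pairs. The groups did not overlap, a gap that the selection of large treated ratios favours. The treated SD of 0.02 (n = 2) was the smallest of the 17 clones. In the limma fit the difference was 0.73 (standard error 0.19, adjusted p 0.187), and each value rested on 1 spot. Its Cy3 channel read 199 and 473 and its Cy5 channel 282 and 841 on those arrays, against 462 and 724.5 in Cy3 and 295 and 952 in Cy5 on the control arrays. Relative to the control arrays Cy3 was 0.73 lower and Cy5 was 0.03 higher, so the difference lay in the control channel. Median centring gave 0.34. Akt2 had 1 clone listed lower, at -0.51, and 1 not listed.

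In the phosphoinositide 3-kinase family, Pik3r4, the regulatory chain of the class III enzyme, was listed higher at both clones. Clone 7639 had ratios of 0.65 and 0.56 against 0.24 and 0.12 in the control pairs, and a limma difference of 0.42 (standard error 0.20, adjusted p 0.257), which was 0.02 with median centring and -0.11 with Cy5 alone. Clone 6014 was listed once at 0.94, the highest ratio of any member, against 0.38 and 0.03. Pik3cd, a catalytic chain best known from leukocytes, was listed lower, with -0.59 and -0.49 against -0.34 and -0.22, and a difference of -0.26 (standard error 0.20, adjusted p 0.481), which was -0.45 with median centring. Most of its ratio was thus also seen in the control pairs. Of the 3 clones of Pik3ca, another catalytic chain, 1 was listed, at 0.90 on 1 array.

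The MAP kinase cascade had 24 clones of 15 genes, with 4 spots listed higher and 11 lower. Map3k7, the kinase that relays cytokine receptor signals to the p38 and JNK branches, was listed lower at 2 of its 3 clones. Clone 14013 had ratios of -0.72 and -0.53 on treated arrays 1 and 3, and of 0.34 and -0.33 in the control pairs. Its limma difference was -0.63 (standard error 0.32, adjusted p 0.28), and it was -0.29 without control pair 1, -0.97 without control pair 2 and -1.14 with median centring. This clone was brighter on the treated arrays in both channels, at 1680 and 3369 in Cy3 and 1027 and 2307 in Cy5, against 504.5 and 803 in Cy3 and 500.5 and 863 in Cy5 on the control arrays. Cy5 alone therefore gave a difference of 1.37, the opposite sign. Clone 13553 of Map3k7 was listed once at -0.57.

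Other members of the cascade were listed once or both ways. Map2k6, which activates p38, had 0.65 on one treated array and -0.86 on another. The 2 clones of Mapk8, which encodes the stress kinase JNK1, went opposite ways, at 0.68 and -0.63 on 1 array each. Map3k12, Map3k14, Map3k3, Map4k4 and Mapk6 had 1 listed array each, from -0.77 for Mapk6 to -0.44 for Map4k4, and Map2k3 and Map4k5 had 0.64 and 0.50. Map2k1, Map2k2, Mapk13, Mapk14 and Mapk9 were not listed.

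Stk24, a kinase of the Ste20 group, was listed lower with -0.97 and -0.54 against -0.44 and -0.38 in the control pairs, and a limma difference of -0.34 (standard error 0.25, adjusted p 0.446), which was -0.63 with median centring, -0.13 without the first treated pair and -0.56 without the third. Stk36, a regulator of Hedgehog signalling and cilia, was valued on all 3 treated arrays but went both ways, at -0.89, 0.59 and 0.68. Prkaa1, a catalytic chain of the AMP-activated kinase, had 0.56 and -0.59, and Prkar1a, a regulatory chain of protein kinase A, had -0.46 and 0.42. Arrays that went both ways within 1 clone occurred in 7 of the 206 members, 4 kinase and 3 phosphatase clones, beside 771 of all 15600 clones. Rock1 had 1 of 4 clones listed higher and 2 lower. Prkaca, the catalytic chain of protein kinase A, was not listed, and Gsk3b had 1 of 2 clones listed lower, at -0.52 against control ratios of 0.23 and 0.17.

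The kinases that control salt transport gave few values. Wnk1 was not listed at any of its 3 clones, and Oxsr1, its target, was not listed either. Wnk4 was listed once, higher, at 0.65 on the third treated array against 0.13 and -0.21 in the control pairs, reading 355 in Cy3 and 658 in Cy5. Stk39, the other target of the Wnk kinases, was listed once, lower, at -0.57, but its control ratios were -0.18 and -0.79. For these 4 genes no change was shown, and where a clone was not listed its ratio on that array has no value here.

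**Figure D4:**
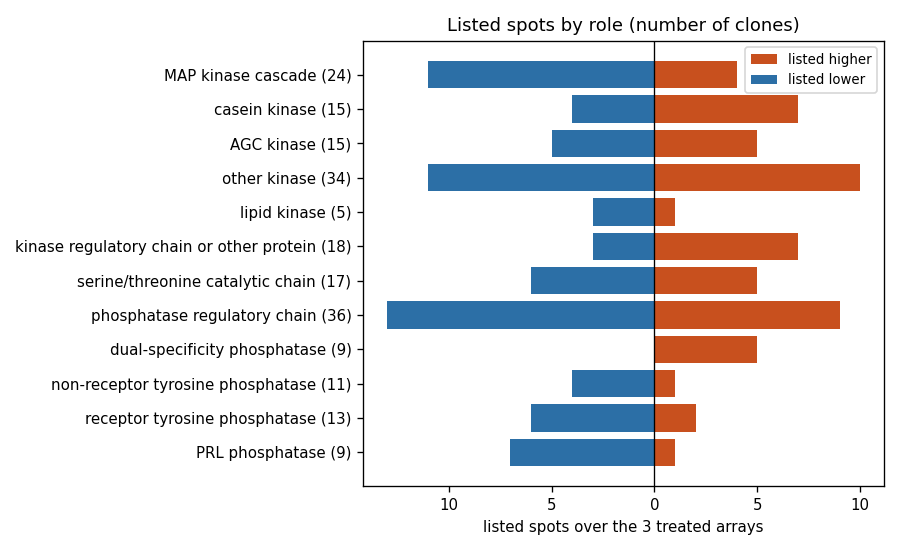
Listed spots over the 3 treated arrays by role of the member, higher to the right and lower to the left, with the number of clones in brackets. Casein kinases had 7 spots higher and 4 lower and dual-specificity phosphatases 5 and 0, while the MAP kinase cascade had 4 and 11 and the Ptp4a (PRL) phosphatases 1 and 7.

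Among phosphatases, the catalytic chains for serine and threonine (17 clones of 10 genes) had 5 spots higher and 6 lower. Clones of Ppp3ca and Ppp3cb, which encode catalytic chains of calcineurin, the calcium-dependent phosphatase, were listed lower on treated arrays 2 and 3. Ppp3ca had -0.76 and -0.58 against -0.03 and -0.50 in the control pairs. The difference by limma was -0.41 (standard error 0.26, adjusted p 0.39), and it was -0.17 without control pair 1 and -0.65 without control pair 2. Ppp3cb clone 15576 had -0.72 and -0.46 against 0.03 and -0.52, so its groups overlapped. Its difference was -0.34 (standard error 0.29, adjusted p 0.534), and -0.07 without control pair 1, -0.62 without control pair 2, -0.21 without the second treated pair and -0.17 with median centring. The other 2 clones of Ppp3cb were not listed. Both Ppp1cc clones, which encode a catalytic chain of protein phosphatase 1, were not listed. Of the 2 clones of Ppp2ca, the catalytic chain of protein phosphatase 2A, 1 was listed at 0.47, between its control ratios of 0.14 and 0.54. Ppp4c, the catalytic chain of phosphatase 4, had 0.70 and -0.73 on different arrays at clone 8315.

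Regulatory chains of phosphatases (36 clones of 28 genes) had 9 spots higher and 13 lower. Ppp2r1b, a scaffold chain of protein phosphatase 2A, had 0.67 and 0.80 against 0.26 and 0.13, and a limma difference of 0.54 (standard error 0.20, adjusted p 0.199). Ppp2r2d, a targeting chain of the same enzyme, had 0.75 and 0.52 against 0.19 and 0.31, and a difference of 0.38 (standard error 0.21, adjusted p 0.32). Both had control ratios above 0 as well, and the scaling of channels put Cy5 0.22 below the control arrays for Ppp2r1b and 0.89 above them for Ppp2r2d. Median centring gave 0.06 for Ppp2r2d. Further chains of this enzyme were Ppp2r5d, listed once, lower, at -0.59, and Ppp2r5e, at -0.54 and 0.72.

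Ppp1r1b, an inhibitor of protein phosphatase 1 also called DARPP-32, had ratios of -0.65 and -0.48 on treated arrays 1 and 3, and of 0.12 and 0.49 in the control pairs. The groups lay on opposite sides of 0, a gap that the selection of large treated ratios favours. The limma difference was -0.88 (standard error 0.24, adjusted p 0.187.) Its Cy5 channel read 140 and 509 in treated cells, and 249.5 and 983 in control cells, while Cy3 read 253 and 621 on the treated and 353.5 and 412.5 on the control arrays. Relative to the control arrays Cy5 was lower by 0.74 (-0.74) and Cy3 higher by 0.25, so both channels added to the ratio, and median centring gave -1.40.

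Ppp4r2, a regulatory chain of phosphatase 4, had 4 clones. Clone 3444 was listed lower with both spots on the first and second treated arrays, with ratios of -0.71 and -0.84 against 0.30 and -0.50 in the control pairs. In the limma fit the difference was -0.67 (standard error 0.35, adjusted p 0.289), and it was -0.27 without control pair 1 and -1.07 without control pair 2. It read 3480 and 2343 in Cy3 and 2148.5 and 1425 in Cy5 on those arrays, against 500 and 1550 in Cy3 and 466.5 and 1147 in Cy5 on the control arrays. The clone was thus brighter in both channels on the treated arrays, by 2.17 in Cy3 and 1.95 in Cy5 after scaling (log2). The other 3 clones of Ppp4r2 were not listed.

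The Ptp4a phosphatases, small membrane-bound enzymes also called PRL, had 7 of 8 listed spots lower. Ptp4a3 had -0.65 and -0.74 on treated arrays 2 and 3 against 0.08 and 0.04 in the control pairs. Its limma difference was -0.75 (standard error 0.19, adjusted p 0.187.) Its Cy5 channel read 192 and 488 in treated cells against 345 and 1167.5 in control cells, and its Cy3 channel read 460 and 715 against 485.5 and 958.5. After scaling, Cy5 stood at -0.99 and Cy3 at -0.30 relative to the control arrays. The difference thus lay in Cy5, and the shift in Cy3 went against it. Ptp4a2 clone 15279 had -0.60 and -0.75 against 0.10 and -0.20, a difference of -0.63 (standard error 0.22, adjusted p 0.195), but was brighter in both channels on the treated arrays, and Cy5 alone gave 1.01. Of the other 3 clones of Ptp4a2 1 was listed lower, at -0.77. Ptp4a1 had 1 of 4 clones higher, at 0.64, and 1 lower, at -0.63.

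Dual-specificity phosphatases, which switch off MAP kinases, had 5 spots listed higher and 0 lower over 9 clones, and 6 of the 9 clones were not listed. Dusp16, which acts on JNK and p38, had ratios of 0.61 and 0.70 on treated arrays 1 and 3 at clone 1552, and of -0.11 and -0.43 in the control pairs. The difference by limma was 0.92 (standard error 0.22, adjusted p 0.187), the largest difference of any member clone listed higher on at least 2 arrays, which median centring brought to 0.60. Its Cy3 channel read 265 and 465 and its Cy5 channel 368 and 843, against 430.5 and 966 in Cy3 and 255.5 and 877 in Cy5 on the control arrays. Relative to the control arrays Cy3 was lower by 0.64 (-0.64) and Cy5 higher by 0.38. Its other clone was not listed. Dusp3 and Dusp7 were listed once each, at 0.61 and 0.77.

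Among tyrosine phosphatases, the non-receptor group had 1 spot higher and 4 lower, and all 3 clones of Ptpn21 were listed lower, once each, at -1.12, -0.57 and -0.74 on different arrays. The first of these was the lowest ratio of any member. The receptor group had 2 spots higher and 6 lower. Ptprd, an adhesion receptor, had -0.69 and -0.57, but its control pairs had -0.16 and -0.60, and its limma difference was -0.25 (standard error 0.25, adjusted p 0.635), which was -0.03 without control pair 1 and -0.47 without control pair 2. Of the 6 clones of Ptprz1 4 were not listed, 1 was listed lower at -0.73 and 1 had -0.71 and 0.66.

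**Figure D5:**
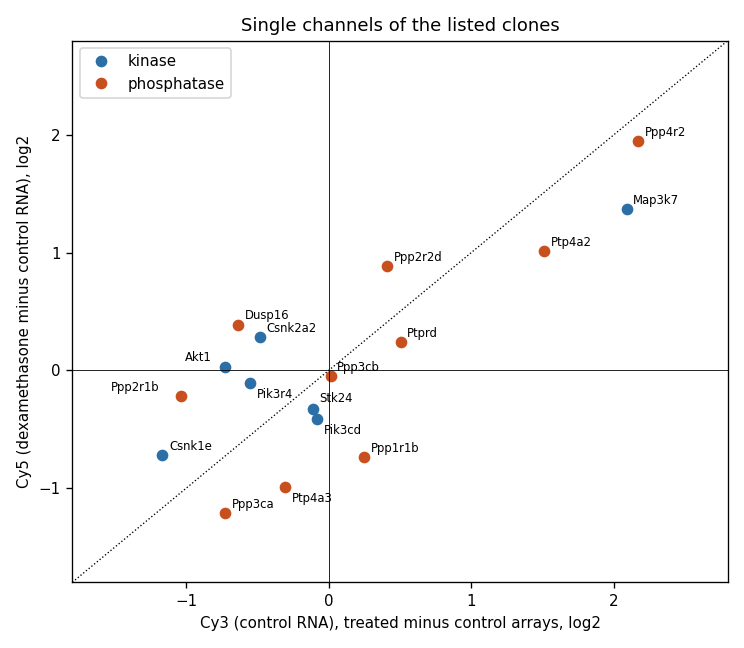
Scaled log2 intensity on the treated minus the control arrays in Cy3 (x axis, control RNA in both) and Cy5 (y axis, dexamethasone minus control RNA) for the 17 clones, with kinases in blue and phosphatases in orange; the dotted line marks equal shifts. Map3k7, Ppp4r2 and Ptp4a2 lie at 1.51 to 2.17 in Cy3, and 10 of the 17 clones have a Cy5 shift in the direction listed, a share not counted over all clones.

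Read by single channel, the Cy5 shift went in the listed direction in 4 of 7 kinase and 6 of 10 phosphatase clones, and it was larger than the Cy3 shift in 2 and 5 of them. These clones were chosen by their Cy5/Cy3 ratios, and the same counts were not made over all clones. Cy3 held control RNA on all arrays, so a shift there is a difference between arrays within control RNA.

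Clones of the same gene offer a further reading of the same transcript. Of 45 member genes with several clones, 11 had at least 2 clones with a net listed direction. In 6 of these the clones went one way, and in 5 they went both ways. The same count was not made over all genes with several clones, so these numbers have no background beside them. The 6 were Csnk1e and Pik3r4, higher, and Csnk1a1, Map3k7, Ptp4a2 and Ptpn21, lower. The 5 were Csnk2a2, Mapk8, Mapk8ip2, Ptp4a1 and Rock1. Clones of a gene can share sequence, and they lie on the same arrays.

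Partners of these pathways outside the symbol rule (34 of 52 listed genes with a clone, 65 clones) had 21 spots higher and 18 lower. Of their clones 3 were listed higher on at least 2 arrays (4.62%) and 2 lower (3.08%), close to the background. The 3 were Sgk1, with 0.79, 0.62 and 0.89 against -0.04 and 0.14 in the control pairs, Ppm1b, a phosphatase of another family, with 0.69 and 0.70 against -0.50 and 0.22, and the 14-3-3 protein Ywhab. Those lower were 1 clone each of Cul3, a ubiquitin ligase scaffold, and Hsp90aa1, a chaperone of kinases, and both genes had other clones listed higher. Of the 6 partner clones in the limma fit 0 passed, and the adjusted p of Sgk1 was 0.187.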

How the data were processed

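Each deposited value is a linear intensity of 1 spot in 1 dye, given as a whole number, from arrays quantified in Imagene 4.0 per the labels. Background correction, normalisation and the rule that left 12.1% to 12.8% of the spots on the treated arrays are steps not given in the sources used here. Channels were joined into pairs by the array or control number in their titles, and joined channels correlated at r from 0.822 to 0.933 over spots. Log2 Cy5/Cy3 ratios computed from the deposited intensities were centred by lowess (statsmodels 0.14.6, span 0.2) in control pairs, and in treated pairs on the midpoint of the empty band around 0, found in windows of 150 spots along intensity (span 0.3). Spots were averaged by clone, numbered in array order. limma 3.58.1 (R 4.3.3, statmod 1.5.0) compared 3 treated with 2 control pairs, with Benjamini-Hochberg adjustment over all 2131 clones with values in at least 2 treated pairs. For single channels, each was shifted by its median difference from the mean of the control-pair channels of its dye. Scripts were tested on simulated data. The number of arrays limits the precision. All 136 symbols matched the RefSeq table.

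Named were member clones listed one way on at least 2 treated arrays, all Csnk2a2 clones and a fixed set of 12 genes, 1 of which is not reported here; other names were chosen after their values were seen. Members, lists and tests were chosen with earlier results of these data known. Alternatives were the clones tested, centring, scale, background, dim spots, pairing, controls, pairs left out and the test.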

Additional observations from a re-analysis of the deposited data

Results flagged for a closer look

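The Cy3 intensity of Csnk1e clone 430, control RNA on every array, stood apart on the first treated array, at 7.78 (scaled log2) against a median of 9.84 in the other 3 channels with a value. Its distance from the closest other channel made up 0.867 of the whole range. Of 17 clones tested in this way, 1 stood apart, and chance gives about 1 in 20.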

How the results depend on the processing

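The limma counts of 0 higher and 0 lower stayed 0 and 0 with no normalisation, lowess over the listed spots, scaled spread, 50 added, spots under 200 left out, treated pairs against 0, Cy5 alone, no replicate block (the 10 channels as separate samples, smallest adjusted p 0.611) and the pair as a random replicate block (0.747). They became 8 higher and 7 lower by the plain t statistic, and 1 lower, outside the members, with clones valued in all 5 pairs (213), clones valued in at least 1 treated pair (8056) and median centring. With each pair left out there were 0 higher and from 0 to 1 lower, the 1 without the first treated pair. Without each treated array in turn, kinase clones listed on both remaining arrays ran from 1 to 4 higher and from 0 to 2 lower, phosphatase clones from 0 to 2 higher and from 1 to 5 lower. Requiring both spots left 0 and 0 kinase and 0 and 1 phosphatase clones, higher and lower. With 1 clone per gene, 1 of 72 kinases was higher and 2 lower, and 2 of 64 phosphatases were higher and 4 lower. The same count was not made over all genes, so these numbers have no background. Kinase and phosphatase medians in the control pairs moved with median centring to 0.0767 and 0.2101 in pair 1 and to -0.0031 and -0.0429 in pair 2. Of the 17 clones, 0 passed in the 8 alternatives run on single clones (smallest adjusted p 0.154). With Cy5 alone 7 reversed, namely Csnk1e (-0.72), Map3k7 (1.37), Pik3r4 (-0.11), Ppp2r1b (-0.22), Ppp4r2 (1.95), Ptp4a2 (1.01) and Ptprd (0.24); the cause was not tested. All 17 kept their direction in the other 7 alternatives. The clones were chosen by the direction of their treated ratios, so this was largely set in advance. Intensity limits were not scored, since no background level is given.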
